A study of Mus musculus with 14 samples.

Results

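The ADAM and ADAMTS metalloproteases were followed here through the healing of a myocardial infarction (MI) in the mouse ventricle. Members were taken by name, as every array probe of a gene whose symbol begins with Adam and a digit, with Adamts or with Adamtsl. This gave 57 of 20614 genes named on the array, read by 78 of its 55482 probes. Scanner output was at hand for 10 of the 14 arrays (4 of MI 14 days, 2 of MI 3 days and all 4 of sham), from 3 slides, and a probe is called detected on such an array where the scanner software flagged it well above background. Of the 78 probes, 45 probes of 36 genes were detected throughout at least 1 group and were tested. The remaining 33 comprised 21 detected on none of these arrays and 12 detected on some.

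Samples came from the border zone of the ventricle of male C57BL/6 mice operated at 8 weeks of age, and each was hybridised alone to a 1-colour Agilent mouse SurePrint array. The groups were MI 14 days (n = 5) and MI 3 days (n = 5), taken 14 and 3 days after the left anterior descending coronary artery had been tied off for good, and sham (n = 4), mice that had the same operation without ligation. All mice were of 1 strain and sex, no transgene or drug is named, and the labels do not say on which day the sham hearts were taken. Levels below are log2 intensity minus the 75th percentile of the same array, so that 0 is the brightness of the 75th-percentile probe, and fold changes are ± SE from limma with p-values adjusted by the Benjamini-Hochberg method over 32249 tested probes. The 75th percentiles were between 188.6 and 443 intensity units, and arrays of 1 group correlated across probes at 0.979 or more. Both comparisons with sham use the same 4 sham arrays.

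ADAM proteins sit in the cell membrane and cut the outer part of other membrane proteins free, a step called shedding that releases growth factors such as HB-EGF, cytokines such as TNF and soluble receptors. ADAMTS proteins are secreted and bind the matrix, where different members cut the proteoglycans versican and aggrecan, remove the amino-terminal propeptide of fibrillar procollagens, cut cartilage oligomeric matrix protein (COMP), or act on fibrillin microfibrils. ADAMTS-like proteins share the matrix-binding modules but have no protease domain. In the infarcted heart these enzymes meet incoming leukocytes first and a collagen scar later.

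At 3 days, 15 of the 36 tested genes were higher than in sham and 13 were lower, against 65.2% of all tested probes changed (25.5% higher and 39.8% lower). At 14 days, 13 were higher than in sham and 4 lower, with 32.5% of all tested probes changed (12.8% higher and 19.8% lower). Between the times, 17 genes were higher and 11 lower at MI 14 days than at MI 3 days, with 55.6% of all tested probes changed (32.7% higher and 22.9% lower). Group ranges were fully separate in 28 of the 36 genes between MI 3 days and sham, 14 between MI 14 days and sham and 21 between MI 14 days and MI 3 days, against 56.8%, 27.4% and 40% of all tested probes. The median log2 fold change over the 36 genes was -0.08 for MI 3 days against sham, 0.18 for MI 14 days against sham and 0.28 for MI 14 days against MI 3 days, while over all tested probes it was -0.193, -0.09 and 0.134. Of the 36 genes, Adamts4, Adamts6, Adamts12, Adamts16 and Adamts17 came into the test only through an MI group in which they were brighter. Adam1a, Adam25 and Adam39 came in only through sham, where they were brightest. The filter thus favoured these calls. For 27 of the 36 genes the probe was detected on all 10 scanner arrays. With such probes only, 11 member genes were higher and 10 lower at 3 days, and 8 higher and 6 lower at 14 days. Of all 27150 probes so detected, 67.8% were changed at 3 days (7050 higher and 11346 lower). At 14 days it was 37.2% (3747 higher and 6360 lower). In bulk tissue, fewer cells of a type and less RNA per cell cannot be told apart.

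**Figure D1:**
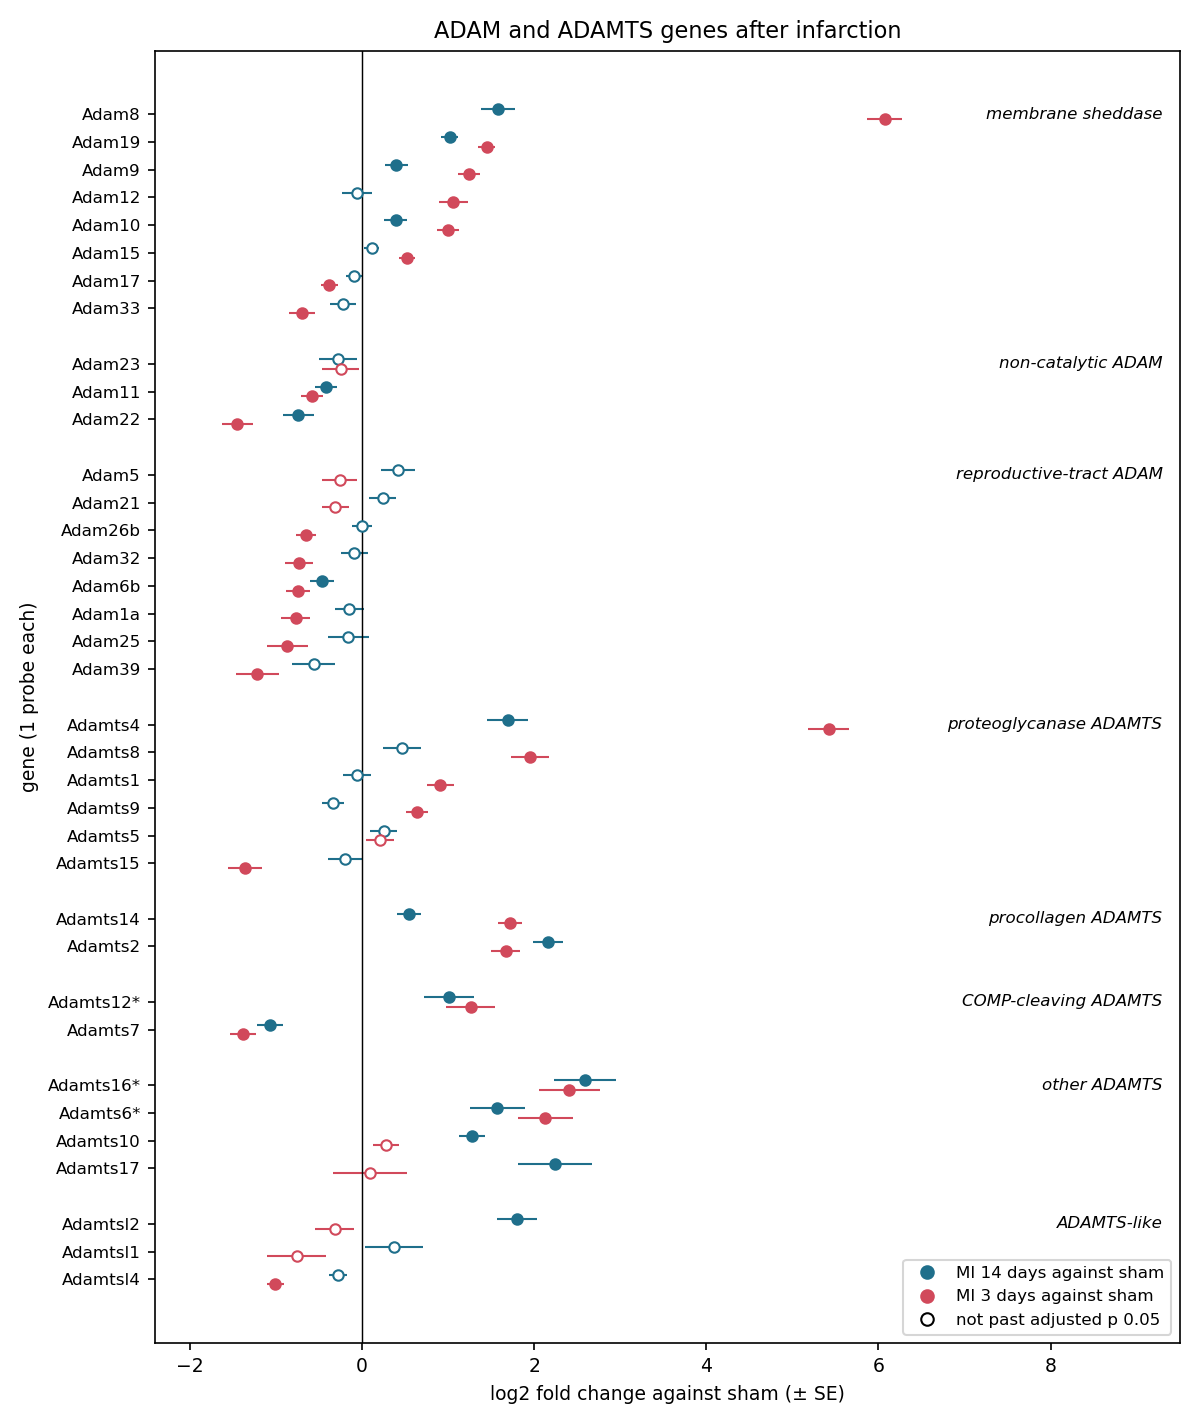
Log2 fold change against sham (horizontal axis, ± SE) of the 36 tested ADAM and ADAMTS genes, 1 probe per gene, grouped by the role of the protein. Filled points passed an adjusted p of 0.05 and open points did not, and an asterisk marks genes not detected on any sham array; Adam8 and Adamts4 at MI 3 days lie farthest to the right, at 6.07 and 5.42.

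Of the 9 membrane sheddases, 8 were tested. At 3 days 6 of them were higher than in sham (Adam8, Adam9, Adam10, Adam12, Adam15 and Adam19) and 2 lower (Adam17 and Adam33), with 25.5% of all tested probes higher and 39.8% lower. At 14 days Adam8, Adam9, Adam10 and Adam19 were higher and none was lower. Adam28 was not detected.

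Adam8, a sheddase known from neutrophils, monocytes and macrophages, had log2 levels of 0.38, 0.25, 0.62, 0.49 and -0.13 on the MI 14 days arrays, 4.57, 4.77, 5.46, 4.53 and 4.72 on the MI 3 days arrays, and -1.13, -1.46, -1.45 and -0.98 on the sham arrays. The 3 groups did not overlap, and every MI 3 days array stood far above the rest. Adam8 was 67.0-fold higher at 3 days than in sham (6.07 ± 0.20, adjusted p = 2.14e-10) and 2.99-fold higher at 14 days (1.58 ± 0.20, adjusted p = 9.44e-05). Within the slides that held both groups the difference was 5.98 and 5.70 at 3 days and 1.68 and 1.31 at 14 days. At 3 days each of these was 1 MI array against 1 sham array. The mean level of 7 neutrophil markers was also highest on the MI 3 days arrays (1.56 to 2.97, against -1.46 to -0.85 in sham). So was that of 7 macrophage markers (3.10 to 3.91, against 0.96 to 1.31 in sham). At MI 14 days these lists stood at -1.83 to -0.46 and 1.67 to 2.17, and their part in the result was not tested. Among the neutrophil markers, Mmp8, Cxcr2 and Clec4e came into the test only through MI groups, so that the filter favoured a high mean there.

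Adam19, the sheddase meltrin beta, which cuts neuregulins and is needed for heart development in mice, had levels of 2.02, 1.99, 2.04, 2.17 and 2.08 at MI 14 days, 2.62, 2.41, 2.56, 2.36 and 2.49 at MI 3 days, and 0.89, 0.85, 1.27 and 1.14 in sham. No array of any group overlapped with another group. The increase over sham was 2.73-fold at 3 days (1.45 ± 0.10, adjusted p = 3.08e-08) and 2.03-fold at 14 days (1.02 ± 0.10, adjusted p = 1.31e-05). The step between the times (-0.43 ± 0.09) missed the threshold on the scanner arrays alone (-0.35, adjusted p = 0.0722). It also missed it in a fit of those arrays blocked on slide (-0.27, adjusted p = 0.169).

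Adam9, a widely expressed sheddase, had levels of 3.36, 3.41, 3.85, 3.53 and 3.07 at MI 14 days, 4.35, 4.15, 4.31, 4.23 and 4.41 at MI 3 days, and 3.19, 2.86, 3.19 and 2.95 in sham. The MI 3 days arrays were all above the others, while 1 MI 14 days array lay within the sham range. Adam9 was 2.37-fold higher than sham at 3 days (1.24 ± 0.13, adjusted p = 2.18e-06). Its difference at 14 days was small (0.40 ± 0.13, adjusted p = 0.0361) and missed the threshold in several alternatives, for example without MI 14 days replicate 3 (0.30, adjusted p = 0.0698).

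Adam10, the constitutive sheddase of Notch receptors, N-cadherin and the amyloid precursor, had levels of 2.46, 2.64, 2.54, 2.37 and 2.17 at MI 14 days, 2.96, 2.93, 3.41, 3.10 and 2.84 at MI 3 days, and 2.12, 2.07, 2.18 and 1.82 in sham. The MI 3 days arrays were above both other groups. Adam10 was 2.0-fold higher at 3 days (1.0 ± 0.13, adjusted p = 1.07e-05). At 14 days it was 0.39 ± 0.13 above sham (adjusted p = 0.031), a call that was lost with any of 5 single arrays left out, for example without sham replicate 4 (0.32, adjusted p = 0.0968).

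Adam17, the TNF-converting enzyme and the inducible sheddase of EGF-receptor ligands, went the other way. It had levels of -2.08, -1.67, -1.79, -1.69 and -1.99 at MI 14 days, -2.24, -2.04, -2.19, -2.24 and -1.94 at MI 3 days, and -1.72, -1.73, -1.80 and -1.74 in sham. The MI 3 days arrays were all below sham, and the MI 14 days arrays spanned both. The fall at 3 days was 1.3-fold (-0.38 ± 0.10, adjusted p = 0.00403) and was not past the threshold on the scanner arrays alone (-0.34, adjusted p = 0.059). The difference at 14 days was -0.09 ± 0.10 (adjusted p = 0.505), and a second Adam17 probe gave -0.16 ± 0.15 at 3 days (adjusted p = 0.372).

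Adam12, the sheddase meltrin alpha, known from muscle regeneration and fibrosis, was read by a pair of tested probes. The brighter probe, A_55_P1958823, had levels of -1.14, -1.81, -1.96, -1.86 and -1.23 at MI 14 days, -0.24, -0.51, -0.52, -0.52 and -0.58 at MI 3 days, and -1.58, -1.57, -1.67 and -1.33 in sham. It was higher at 3 days (1.06 ± 0.17, adjusted p = 6.53e-05) and overlapped with sham at 14 days (-0.06 ± 0.17, adjusted p = 0.817). The other probe, A_51_P510882, had levels of -2.54, -2.91, -2.36, -2.18 and -2.46 at MI 3 days and was not detected at MI 14 days or in sham. On it Adam12 was at least 3.54-fold higher at MI 3 days than in sham (fitted difference 3.98 ± 0.22, adjusted p = 7.87e-09). It was at least 3.14-fold higher at MI 3 days than at MI 14 days (fitted difference -3.28 ± 0.21, later time minus earlier, adjusted p = 5.35e-08).

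Adam15, a sheddase with an integrin-binding disintegrin domain, was 1.43-fold higher at 3 days (0.52 ± 0.09, adjusted p = 0.000212), with levels between 5.82 and 6.02 at MI 3 days and between 5.21 and 5.58 in sham. On its brighter probe Adam33 was lower at 3 days (-0.70 ± 0.15, adjusted p = 0.00105), with levels between -0.91 and -0.54 at MI 3 days and between -0.23 and 0.22 in sham. The second Adam33 probe overlapped with sham at 3 days and did not pass the threshold (-0.49 ± 0.22, adjusted p = 0.0669). Neither gene differed from sham past the threshold at 14 days.

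**Figure D2:**
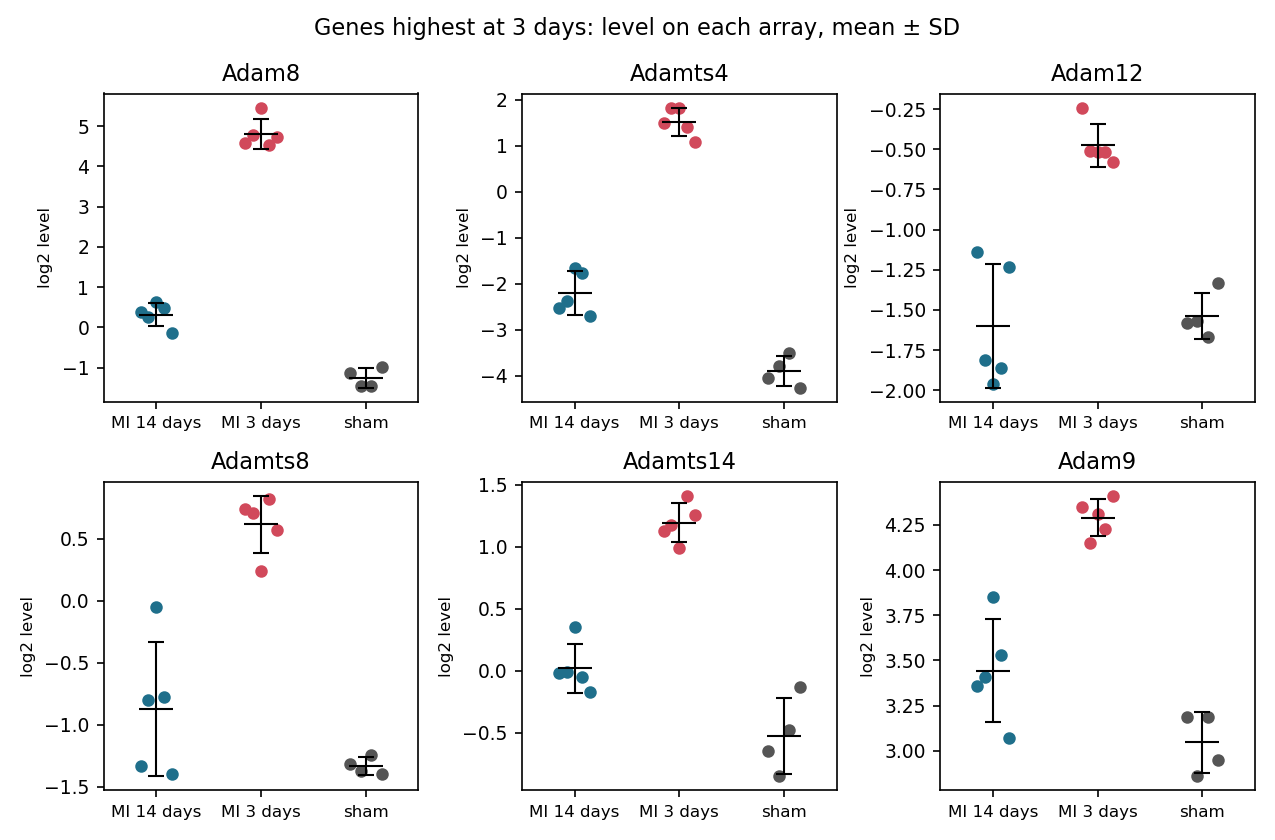
Log2 level (vertical axis, relative to the 75th percentile of the array; each panel has its own range) of 6 genes with their highest mean at MI 3 days, for MI 14 days, MI 3 days and sham. Each point is 1 array and the bar is the mean ± SD; Adam8 lies between 4.53 and 5.46 on the MI 3 days arrays and at or below 0.62 on all others.

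The non-catalytic ADAMs, which act in cell adhesion and synapses rather than as proteases, were not higher at either time. Adam22, a receptor for LGI proteins in the brain, had levels of -0.97, -1.04, -1.80, -1.20 and -0.97 at MI 14 days, -1.68, -1.94, -2.20, -1.82 and -1.91 at MI 3 days, and -0.11, -0.50, -0.50 and -0.72 in sham. All MI arrays lay below all sham arrays. Adam22 fell by 1.45 ± 0.18 on the log2 scale at 3 days (adjusted p = 6.63e-06) and by 0.74 ± 0.18 at 14 days (adjusted p = 0.00587), the second of which missed the threshold in a fit blocked on slide (-0.65, adjusted p = 0.0722). On its brighter probe Adam11 was lower at both times (-0.58 ± 0.13 at 3 days and -0.42 ± 0.13 at 14 days), while its second probe was lower at 3 days (-0.61 ± 0.14) and did not pass the threshold at 14 days (-0.34 ± 0.14, adjusted p = 0.0792). Adam23 did not pass the threshold at either time (-0.25 ± 0.22 and -0.28 ± 0.22).

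Of the 22 ADAM genes known mainly from testis and epididymis, where they serve sperm maturation and sperm-egg contact, 8 were tested. The other 14 had no probe detected throughout any group (Adam1b, Adam2, Adam3, Adam4, Adam6a, Adam7, Adam18, Adam20, Adam24, Adam26a, Adam29, Adam30, Adam34 and Adam34l). At 3 days 6 of the 8 were lower than in sham (Adam1a, Adam6b, Adam25, Adam26b, Adam32 and Adam39), with 39.8% of all tested probes lower in that comparison, and at 14 days 1 was (Adam6b, -0.47 ± 0.14, adjusted p = 0.0192). Of the 6, Adam1a, Adam25 and Adam39 came into the test only through sham, where they were brightest, so that they add no weight to the count. Adam1a, Adam6b, Adam25, Adam26b and Adam32 had 3-day fold changes between -0.87 and -0.65 on the log2 scale, and Adam5 and Adam21 did not pass the threshold. Adam39 had levels of -3.81, -3.03, -4.60, -3.30 and -3.68 at MI 14 days, -4.18, -4.69, -4.29, -4.36 and -4.24 at MI 3 days, and -3.48, -2.84, -3.27 and -2.91 in sham. Its fall at 3 days (-1.22 ± 0.25, adjusted p = 0.00078) rested on dim spots. It shrank to -0.18 (adjusted p = 0.126) with normexp, an alternative that changed background correction and normalization together on the scanner arrays alone.

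The ADAMTS proteoglycanases, which cut versican and aggrecan, were higher at 3 days in 4 of 6 tested genes (Adamts1, Adamts4, Adamts8 and Adamts9) and lower in 1 (Adamts15), with 25.5% of all tested probes higher and 39.8% lower. At 14 days Adamts4 alone of the 6 was higher than in sham. Adamts20 was not detected.

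Adamts4, known as aggrecanase-1 and induced by inflammatory cytokines, had levels of -2.53, -2.38, -1.65, -1.76 and -2.70 at MI 14 days, 1.49, 1.81, 1.82, 1.41 and 1.09 at MI 3 days, and -4.04, -3.78, -3.51 and -4.26 in sham. The groups stood apart in 3 tiers, and the probe was detected on 3 of the 4 sham arrays. The increase over sham was 42.9-fold at 3 days (5.42 ± 0.24, adjusted p = 1.13e-09) and 3.23-fold at 14 days (1.69 ± 0.24, adjusted p = 0.000207). Within slides the difference was 4.92 and 5.35 at 3 days and 1.37 and 2.23 at 14 days.

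Adamts8, a proteoglycanase also known as an inhibitor of blood vessel growth, had levels of -1.33, -0.80, -0.05, -0.78 and -1.40 at MI 14 days, 0.74, 0.71, 0.24, 0.82 and 0.57 at MI 3 days, and -1.32, -1.37, -1.24 and -1.40 in sham on its brighter probe, A_55_P2005833. The MI 3 days arrays were above all others (1.95 ± 0.22 against sham, adjusted p = 3.77e-06), and the MI 14 days arrays overlapped with sham (0.46 ± 0.22, adjusted p = 0.132). The second probe, A_55_P2046550, was detected on all scanner arrays and gave -0.05 ± 0.13 at 3 days (adjusted p = 0.738). The increase of Adamts8 was therefore read by 1 of its 2 tested probes.

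Adamts15, a versican-cutting enzyme, was the lower gene of the group. Its levels were 0.41, 0.00, 0.80, 0.23 and 0.40 at MI 14 days, -0.16, -1.22, -1.08, -0.69 and -0.77 at MI 3 days, and 0.50, 0.36, 0.68 and 0.76 in sham. Every MI 3 days array was below every other array. It fell by 1.36 ± 0.20 at 3 days (adjusted p = 4.09e-05) and stood at -0.20 ± 0.20 against sham at 14 days (adjusted p = 0.47).

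Adamts1, which cuts versican and binds VEGF, was 1.88-fold higher at 3 days (0.91 ± 0.16, adjusted p = 0.000233) with levels of 3.59 to 4.07 at MI 3 days and 2.76 to 3.03 in sham. Adamts9, a secreted versican-cutting enzyme, was 1.56-fold higher (0.64 ± 0.13, adjusted p = 0.000588), with levels of 1.50 to 2.03 and 1.01 to 1.29 in the same groups. For Adamts5, aggrecanase-2, the brighter probe did not pass the threshold at 3 days (0.21 ± 0.16, adjusted p = 0.277) while the other was lower (-0.94 ± 0.20, adjusted p = 0.000918). Both Adamts5 probes gave differences under 0.3 in size at 14 days, and neither passed the threshold.

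The procollagen N-proteinases remove the amino-terminal propeptide from fibrillar procollagens. Adamts2 had levels of 5.31, 5.45, 5.93, 5.58 and 5.06 at MI 14 days, 4.83, 4.96, 4.81, 5.03 and 5.27 at MI 3 days, and 3.28, 3.04, 3.21 and 3.71 in sham. All MI arrays were above all sham arrays, while the MI groups overlapped. The increase was 4.46-fold at 14 days (2.16 ± 0.17, adjusted p = 3.52e-06) and 3.19-fold at 3 days (1.67 ± 0.17, adjusted p = 1.34e-06), and a second probe gave 1.98 ± 0.22 and 1.27 ± 0.22. The step of 0.49 ± 0.16 between the times missed the threshold on the scanner arrays alone (0.32, adjusted p = 0.32). It also missed it in a fit of those arrays blocked on slide (0.25, adjusted p = 0.485). The mean level of 8 fibroblast markers was higher on all MI arrays too (3.99 to 4.55 at MI 14 days and 3.34 to 3.92 at MI 3 days, against 2.54 to 2.80 in sham), and its part in the result was not tested.

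Adamts14, its close relative, had levels of -0.02, -0.01, 0.35, -0.05 and -0.17 at MI 14 days, 1.13, 1.18, 0.99, 1.41 and 1.26 at MI 3 days, and -0.65, -0.85, -0.48 and -0.13 in sham on the brighter probe, A_55_P1978316. The MI 3 days arrays were above all others. It was 3.3-fold higher than sham at 3 days (1.72 ± 0.14, adjusted p = 2.04e-07) and 0.55 ± 0.14 higher at 14 days (adjusted p = 0.0103), the second of which missed the threshold in a fit blocked on slide (0.48, adjusted p = 0.104). The dimmer probe, A_52_P156763, gave -0.32 ± 0.29 at 3 days (adjusted p = 0.347). Between the times Adamts2 rose and Adamts14 fell (-1.18 ± 0.14, adjusted p = 8.27e-06), each as the later time minus the earlier one. Adamts3 was not detected.

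The COMP-cleaving pair differed in direction. Adamts7, known in smooth muscle and in the arterial wall, had levels of -0.63, -1.12, -1.44, -1.20 and -0.82 at MI 14 days, -1.22, -1.23, -1.59, -1.35 and -1.36 at MI 3 days, and 0.28, 0.07, -0.18 and -0.05 in sham. Every MI array was below every sham array. It was 2.1-fold lower at 14 days (-1.07 ± 0.15, adjusted p = 0.000249) and 2.61-fold lower at 3 days (-1.38 ± 0.15, adjusted p = 2.82e-06).

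Adamts12 had levels of -3.89, -3.49, -2.46, -3.72 and -3.34 at MI 14 days, -2.98, -3.12, -3.92, -2.46 and -3.18 at MI 3 days, and -4.57, -4.11, -4.52 and -4.35 in sham. The MI groups overlapped with each other and not with sham, where it was not detected. It was at least 1.84-fold higher at 14 days (fitted difference 1.01 ± 0.29, adjusted p = 0.017) and at least 2.18-fold higher at 3 days (fitted difference 1.26 ± 0.29, adjusted p = 0.00174). The 14-day call missed the threshold in a fit blocked on slide (1.0, adjusted p = 0.0918), and with normexp the difference was 0.17 (adjusted p = 0.246).

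Of the 7 remaining ADAMTS enzymes 4 were tested. Adamts6, Adamts10, Adamts16 and Adamts17 were above sham at 14 days, and Adamts6 and Adamts16 also at 3 days. Of these, Adamts10 was detected on every scanner array, while Adamts6, Adamts16 and Adamts17 came into the test only through an MI group in which they were brighter, so that the count of the 4 carries no weight of its own. Adamts13, which cuts von Willebrand factor, Adamts18 and Adamts19 were not bright enough to test.

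Adamts10, a fibrillin-binding enzyme mutated in human Weill-Marchesani syndrome, had levels of -0.08, 0.09, -0.02, -0.06 and -0.46 at MI 14 days, -1.51, -1.28, -1.07, -0.78 and -0.89 at MI 3 days, and -1.61, -1.44, -1.17 and -1.34 in sham. The MI 14 days arrays were above all others. The difference from sham was 2.43-fold at 14 days (1.28 ± 0.15, adjusted p = 7.06e-05) and 0.28 ± 0.15 at 3 days (adjusted p = 0.121). The early difference passed the threshold on the scanner arrays alone (0.55, adjusted p = 0.0152), with normexp on those same arrays (0.37, adjusted p = 0.0172) and without MI 3 days replicate 1 (0.38, adjusted p = 0.0316).

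Adamts17, its relative, mutated in a Weill-Marchesani-like syndrome, had levels of -2.74, -2.41, -2.48, -2.30 and -3.44 at MI 14 days, -4.95, -4.70, -5.57, -4.74 and -4.11 at MI 3 days, and -5.51, -4.28, -6.12 and -3.73 in sham. The MI 14 days arrays were above all others, and the sham arrays were widely spread, with the probe detected on 1 of 4. The difference from sham was 2.24 ± 0.43 at 14 days (adjusted p = 0.00176) and 0.09 ± 0.43 at 3 days (adjusted p = 0.86). Within slides the 14-day difference was 2.16 and 0.99, and the step between the times, 2.14 ± 0.41, became 1.10 in a fit blocked on slide (adjusted p = 0.175). A second Adamts17 probe, too dim to test, was highest in sham, with means of -4.68 at MI 14 days, -5.07 at MI 3 days and -4.39 in sham.

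Adamts16, an enzyme that cuts fibronectin, had levels of -3.21, -3.45, -3.33, -3.31 and -4.64 at MI 14 days, -4.73, -3.54, -4.06, -3.62 and -2.90 at MI 3 days, and -6.53, -5.57, -6.08 and -6.53 in sham. Neither MI group overlapped with sham, where the probe was not detected. It was at least 1.65-fold higher at 14 days (fitted difference 2.59 ± 0.36, adjusted p = 0.000219) and at least 1.46-fold higher at 3 days (fitted difference 2.41 ± 0.36, adjusted p = 5.08e-05). A second Adamts16 probe, too dim to test, went the other way, with means of -5.24 at MI 14 days, -5.56 at MI 3 days and -4.63 in sham.

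Adamts6, the close relative of Adamts10, needed for heart development in mice, had levels of -4.33, -4.22, -3.38, -3.63 and -5.32 at MI 14 days, -3.13, -3.81, -3.62, -3.70 and -3.83 at MI 3 days, and -5.40, -5.76, -5.55 and -6.27 in sham. Neither MI group overlapped with sham, where it too was not detected. Adamts6 was at least 1.1-fold higher at 14 days (fitted difference 1.57 ± 0.32, adjusted p = 0.00244), a call that was lost with normexp (0.16, adjusted p = 0.22). At 3 days it was at least 1.62-fold higher (fitted difference 2.13 ± 0.32, adjusted p = 5.1e-05).

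**Figure D3:**
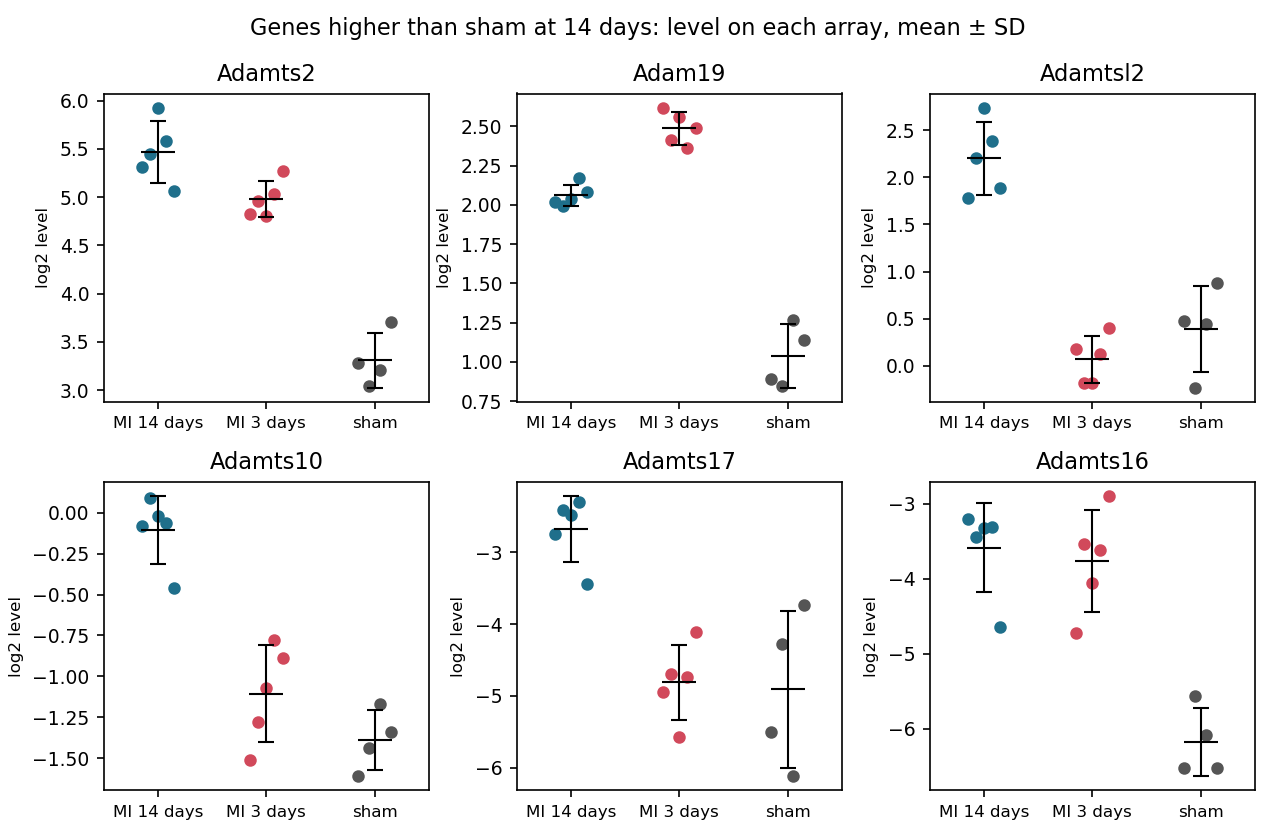
Log2 level (vertical axis, relative to the 75th percentile of the array; each panel has its own range) of 6 genes higher than sham at MI 14 days, for MI 14 days, MI 3 days and sham. Each point is 1 array and the bar is the mean ± SD; for Adamtsl2, Adamts10 and Adamts17 the MI 3 days arrays overlap with the sham arrays, and for Adamts2, Adam19 and Adamts16 they do not.

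Among the ADAMTS-like genes, all 3 that were tested were higher at MI 14 days than at MI 3 days, with 32.7% of all tested probes higher in that comparison, and Adamtsl2 was also higher than sham. Adamtsl3 was not bright enough to test. Adamtsl2, which binds fibrillin and latent TGF-beta binding proteins and is mutated in human geleophysic dysplasia, had levels of 1.78, 2.21, 2.74, 2.38 and 1.89 at MI 14 days, 0.18, -0.18, -0.18, 0.13 and 0.40 at MI 3 days, and 0.48, -0.23, 0.44 and 0.88 in sham. The MI 14 days arrays were above all others, and the MI 3 days arrays lay within the sham range. It was 3.49-fold higher than sham at 14 days (1.80 ± 0.23, adjusted p = 0.000106) and 4.37-fold higher than at MI 3 days (2.13 ± 0.21, adjusted p = 2.56e-06). The difference from sham at 3 days was -0.32 ± 0.23 (adjusted p = 0.227) and passed the threshold without sham replicate 2 (-0.53, adjusted p = 0.0435).

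Adamtsl4, another fibrillin-binding member, had levels of 2.37, 2.54, 2.31, 2.20 and 2.36 at MI 14 days, 1.83, 1.43, 1.74, 1.57 and 1.54 at MI 3 days, and 2.55, 2.78, 2.72 and 2.48 in sham. The MI 3 days arrays were below all others. It was 2.01-fold lower than sham at 3 days (-1.01 ± 0.10, adjusted p = 1.26e-06). At 14 days the difference of -0.28 ± 0.10 lay at the edge of the threshold (adjusted p = 0.0543), and passed it on the scanner arrays alone (-0.32, adjusted p = 0.0326).

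Adamtsl1, also called punctin, had levels of -2.32, -2.31, -1.86, -2.05 and -2.74 at MI 14 days, -3.06, -3.27, -3.03, -4.15 and -3.41 at MI 3 days, and -2.74, -3.35, -1.40 and -3.01 in sham. The MI groups did not overlap with each other (1.13 ± 0.32 for MI 14 days against MI 3 days, adjusted p = 0.00888), while the widely spread sham arrays overlapped with both. Without sham replicate 3 the 14-day difference from sham, 0.37 ± 0.34, became 0.78 (adjusted p = 0.0395), and without sham replicate 2 the 3-day difference, -0.76 ± 0.34, became -1.0 (adjusted p = 0.0238).

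**Figure D4:**
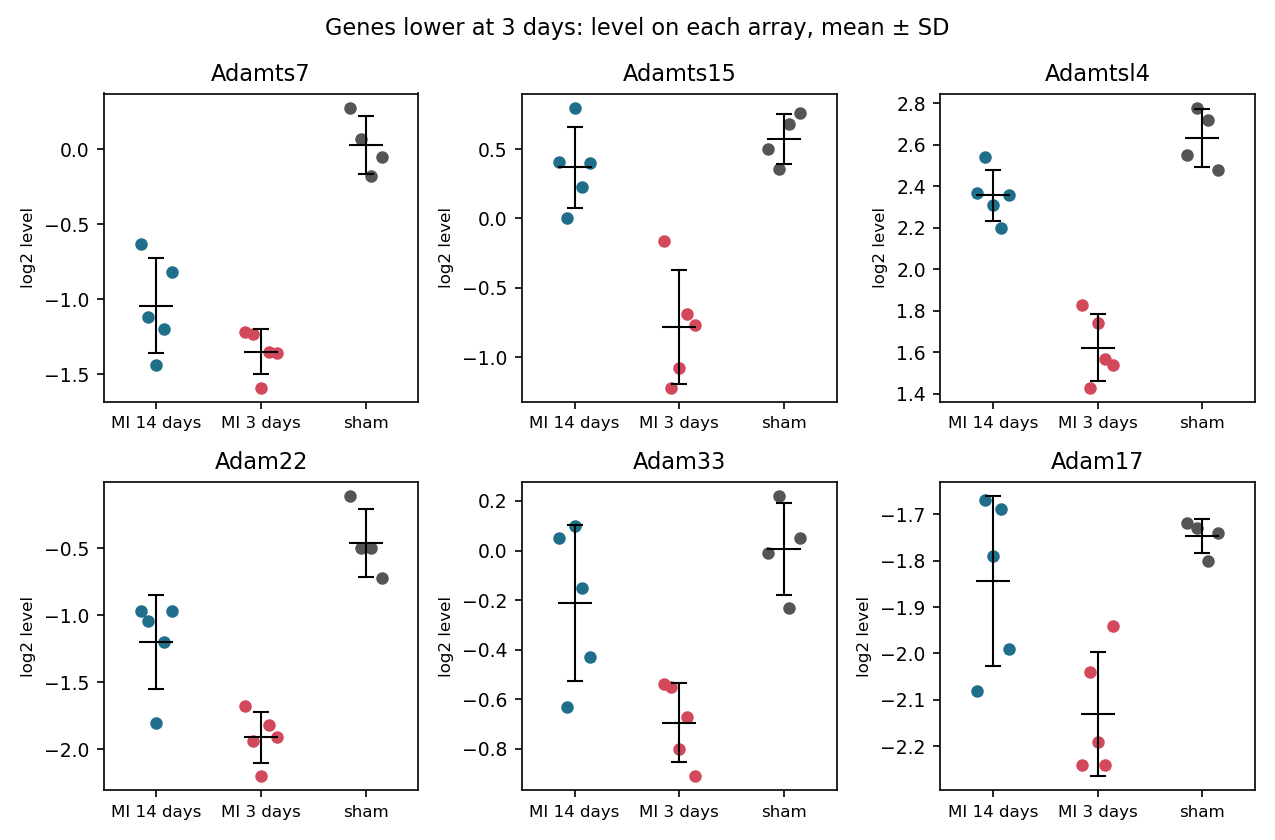
Log2 level (vertical axis, relative to the 75th percentile of the array; each panel has its own range) of 6 genes lower than sham at MI 3 days, for MI 14 days, MI 3 days and sham. Each point is 1 array and the bar is the mean ± SD; for Adamts7 and Adam22 the MI 14 days arrays are also all below sham, and for the other genes they overlap with sham.

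Over time, the 15 genes that were higher at 3 days comprised 10 that were also higher than sham at 14 days and 5 that were not (Adam12, Adam15, Adamts1, Adamts8 and Adamts9). Of the 13 that were lower at 3 days, 4 were also lower at 14 days (Adam11, Adam22, Adam6b and Adamts7), and the other 9 were higher at MI 14 days than at MI 3 days with no call against sham at 14 days. Adamts10, Adamts17 and Adamtsl2 were called against sham only at 14 days, and the test of MI 14 days against MI 3 days was past the threshold for each of the 3. Adam23 and the brighter Adamts5 probe passed the threshold in no comparison. Adamts4, Adamts6, Adamts12 and Adamts16 among the 10, Adam1a, Adam25 and Adam39 among the 9, and Adamts17 came into the test only through groups in which they were brighter. They add no weight to these counts. The 2 comparisons share the sham arrays and so are not independent, and the share of all tested probes with each pattern was not counted.

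The 250 bases before the start of 4 of these genes are shown because they span the time courses above, with Adam8 and Adamts14 highest at 3 days, Adamts2 high at both times and Adamtsl2 higher at 14 days. They are RefSeq promoters on GRCm38.p6, written 5′ to 3′ on the gene's strand, and 31 of the 57 member genes have an entry with 33 such promoters. Capitals mark matches, on either strand, to TATAAA (the TATA box), GGGCGG (the GC box) or TGANTCA (AP-1).
Adam8 (chr7:139992563-139992812, minus strand): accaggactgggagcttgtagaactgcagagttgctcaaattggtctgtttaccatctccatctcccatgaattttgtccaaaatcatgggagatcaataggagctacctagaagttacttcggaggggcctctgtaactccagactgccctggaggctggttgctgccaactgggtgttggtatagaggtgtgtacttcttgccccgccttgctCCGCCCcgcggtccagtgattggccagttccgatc
Adamts14 (chr10:61273420-61273669, minus strand): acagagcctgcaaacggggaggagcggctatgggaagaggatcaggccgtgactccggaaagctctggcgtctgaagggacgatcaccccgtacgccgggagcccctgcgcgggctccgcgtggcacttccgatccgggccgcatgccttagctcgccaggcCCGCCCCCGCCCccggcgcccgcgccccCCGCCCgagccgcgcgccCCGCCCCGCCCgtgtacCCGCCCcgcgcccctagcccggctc
Adamts2 (chr11:50601835-50602084, plus strand): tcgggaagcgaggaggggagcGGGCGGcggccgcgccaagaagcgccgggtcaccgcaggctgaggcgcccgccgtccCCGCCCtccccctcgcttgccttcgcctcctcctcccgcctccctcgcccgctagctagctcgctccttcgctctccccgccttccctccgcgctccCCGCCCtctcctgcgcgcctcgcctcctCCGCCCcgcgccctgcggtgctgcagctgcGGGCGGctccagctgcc
Adamtsl2 (chr2:27079129-27079378, plus strand): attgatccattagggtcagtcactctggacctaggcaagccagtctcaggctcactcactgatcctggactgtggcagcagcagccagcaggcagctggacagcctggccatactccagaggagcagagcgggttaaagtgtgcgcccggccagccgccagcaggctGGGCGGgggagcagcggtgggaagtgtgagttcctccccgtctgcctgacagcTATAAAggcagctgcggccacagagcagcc
TATAAA was found in the promoter of Adamtsl2 alone among the 4, and GGGCGG in all 4, with 6 matches in Adamts14, 5 in Adamts2 and 1 each in Adam8 and Adamtsl2. None of the 4 held TGANTCA or the NF-kappaB consensus. Of 32851 mouse promoters of the same length 12.4% held TATAAA, 32.7% GGGCGG and 6.75% TGANTCA, against 15.2%, 42.4% and 12.1% of the 33 member promoters.

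Of 26 inhibitors and cofactors of these enzymes 24 were tested, and 14 were higher and 2 lower at 14 days (median log2 fold change 0.49), and 12 were higher and 6 lower at 3 days (median 0.14). Over all tested probes, 12.8% were higher and 19.8% lower at 14 days, and 25.5% higher and 39.8% lower at 3 days. Timp1, a secreted metalloproteinase inhibitor that acts on few ADAMs, was 8.21-fold higher at 14 days (3.04 ± 0.17, adjusted p = 2.68e-07) and 65.2-fold higher at 3 days (6.03 ± 0.17, adjusted p = 8.73e-11). Timp3, the matrix-bound inhibitor of ADAM17 and of the aggrecanases, was higher at 14 days (0.63 ± 0.13, adjusted p = 0.00227) and lower at 3 days (-0.36 ± 0.13, adjusted p = 0.0243). Timp4, the inhibitor enriched in heart, was lower at both times (-1.31 ± 0.24 and -1.87 ± 0.24).

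Sfrp1, a secreted Wnt antagonist that also inhibits ADAM10, was 2.65 ± 0.19 above sham at 14 days and 1.47 ± 0.19 above it at 3 days. Rhbdf2, the iRhom that brings ADAM17 to the cell surface, was higher at 3 days (0.39 ± 0.10, adjusted p = 0.00319) and stood at -0.01 ± 0.10 at 14 days (adjusted p = 0.975). Of the proprotein convertases that remove the prodomain, Pcsk6 was lower at 3 days (-1.56 ± 0.11, adjusted p = 3.59e-08) and Pcsk5 higher at 14 days (1.44 ± 0.18, adjusted p = 8.95e-05).

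Of 24 membrane proteins known as ADAM substrates 23 were tested, and 10 were higher and 0 lower at 14 days (median 0.41), and 19 were higher and 3 lower at 3 days (median 1.0), beside the same shares over all tested probes (12.8% higher and 19.8% lower at 14 days, 25.5% and 39.8% at 3 days). Tnf, Il1r2, Areg and Ereg were not detected in sham and came into the test only through an MI group. Btc, lower at 3 days, came in only through sham. These genes add no weight to the counts. Il1r2, the decoy receptor of interleukin 1, was at least 38.3-fold higher than sham at 3 days and Ereg, an EGF-receptor ligand, at least 14.8-fold higher. Areg, the EGF-receptor ligand amphiregulin, was at least 1.07-fold higher at 3 days. At 14 days Ereg was at least 5.14-fold higher, Nrg1, the neuregulin ligand of ErbB receptors, was higher by 2.10 ± 0.32, Cx3cl1, the membrane-bound chemokine fractalkine, by 1.28 ± 0.17 and Tnfrsf1b, a TNF receptor, by 1.08 ± 0.24. These calls had adjusted p-values between 3.3e-09 and 0.00387.

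Of 16 matrix substrates of ADAMTS enzymes 14 were tested, and 12 were higher and 0 lower at 14 days (median 2.06), and 9 were higher and 4 lower at 3 days (median 1.74), where all tested probes had 12.8% higher and 19.8% lower at 14 days and 25.5% and 39.8% at 3 days. Among those counted as higher, Col2a1 was detected neither at MI 3 days nor in sham. It came into the test only through MI 14 days and adds no weight to either count. Vcan, the versican gene, was higher at 14 days (1.26 ± 0.11, adjusted p = 7.37e-06) and at 3 days (1.90 ± 0.11, adjusted p = 9.69e-09). Comp was 63.9-fold higher at 14 days (6.00 ± 0.27, adjusted p = 8.09e-08) and lower at 3 days (-0.88 ± 0.27, adjusted p = 0.0115). At 14 days Col2a1, the cartilage collagen, was at least 10.7-fold higher. Fn1, which encodes fibronectin, was higher by 2.93 ± 0.25 at 14 days and 3.68 ± 0.25 at 3 days, and Col3a1, a fibrillar collagen of scar, by 2.67 ± 0.15 and 2.45 ± 0.15. Col1a1 and Col1a2, the chains of type I collagen, were higher by 2.81 ± 0.19 and 2.63 ± 0.17 at 3 days.

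Markers of several cell types moved with the groups. The tissue label was borne out by cardiomyocyte markers, bright on every array, with a mean log2 level over 8 genes of 7.88 to 8.51 at MI 14 days, 7.13 to 7.39 at MI 3 days and 8.43 to 8.62 in sham. All 8 were lower at 3 days and 4 at 14 days, with 39.8% and 19.8% of all tested probes lower. Over 7 tested neutrophil markers the mean was -1.83 to -0.46 at MI 14 days, 1.56 to 2.97 at MI 3 days and -1.46 to -0.85 in sham. Of these, 6 were higher at 3 days and Csf3r was lower, with 25.5% of all tested probes higher and 39.8% lower. Mmp8 and Clec4e were not detected in sham. Mmp8 and Cxcr2 came into the test only through MI 3 days, and Clec4e only through the MI groups, so that they add no weight to the count.

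Over 7 tested macrophage markers the mean was 1.67 to 2.17 at MI 14 days, 3.10 to 3.91 at MI 3 days and 0.96 to 1.31 in sham. Of them, 7 were higher at 3 days and 3 at 14 days. Over all tested probes 25.5% were higher and 39.8% lower at 3 days, and 12.8% higher and 19.8% lower at 14 days. Over 8 fibroblast markers it was 3.99 to 4.55 at MI 14 days, 3.34 to 3.92 at MI 3 days and 2.54 to 2.80 in sham, with 8 higher at 14 days, and 5 higher and 1 lower at 3 days. Endothelial markers ranged from 2.50 to 2.63 at MI 14 days, 2.39 to 2.63 at MI 3 days and 2.48 to 2.64 in sham. Smooth muscle and pericyte markers ranged from 2.22 to 2.69, 1.99 to 2.55 and 2.28 to 2.36 in the same order of groups, and lymphocyte markers from -2.51 to -1.33, -1.85 to -1.24 and -2.51 to -2.08. These means can hide opposite changes. At 3 days 4 of 8 smooth muscle and pericyte markers were higher (Acta2, Pdgfrb, Cspg4 and Cnn1) and 3 lower (Myh11, Rgs5 and Kcnj8). Of 8 endothelial markers 2 were higher and 1 lower at 3 days, and of 7 lymphocyte markers 1 was higher (Klrd1, not detected in sham) and 1 lower. The part of these cell types in the changes of the ADAM and ADAMTS genes was not tested.

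**Figure D5:**
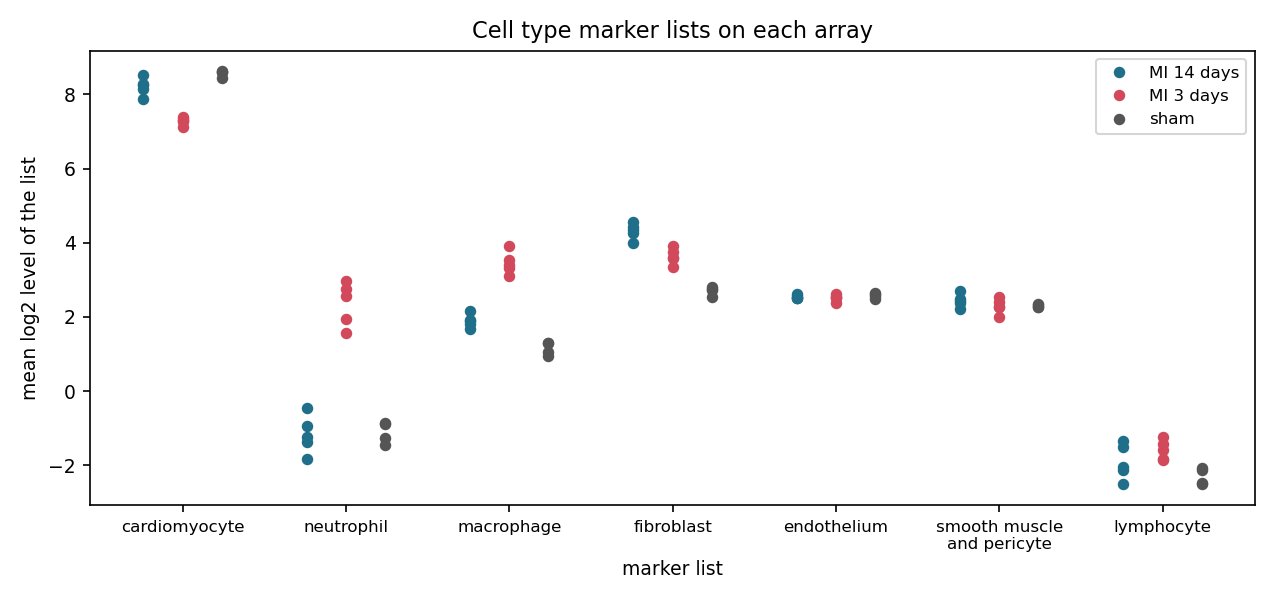
Mean log2 level (vertical axis, relative to the 75th percentile of the array) of the tested genes of 7 marker lists, 1 point per array, for MI 14 days, MI 3 days and sham. The neutrophil and macrophage lists are highest on the MI 3 days arrays, at 1.56 to 2.97 and 3.10 to 3.91, and the fibroblast list is highest on the MI 14 days arrays, at 3.99 to 4.55.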

How the data were processed

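Intensities came from the series' value table, deposited as 1 linear Cy3 intensity per probe and array with no scaling between arrays. Per the file headers, 10 arrays (4 of MI 14 days, 2 of MI 3 days, 4 of sham) were read with Agilent Feature Extraction 10.7.3.1, and their processed signal equals the table's value for single-spot probes. The submitters' processing notes name limma without a version. The scanner files hold no gene name column and no mean signal, so probes were named through the RefSeq accession (27144 named), and normexp, 1 of the alternatives, used the median signal. Normexp had an offset of 50, which was added before the log2 and makes the fold changes of dim probes smaller. It was followed by quantile normalization and covered only the 10 scanner arrays. The labels' protocols name both purified mRNA and total RNA as the labelled material.

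The log2 of the authors' intensity minus each array's 75th percentile was fitted for all 14 arrays and 3 groups by the lmFit and eBayes functions of limma 3.58.1 under R 4.3.3, two-sided, at a threshold of adjusted p under 0.05. Probes flagged well above background on all scanner arrays of 1 or more groups were tested, and 23233 dimmer ones were not. Precision is limited by the number of arrays, and p-values measure the spread between arrays, each taken as 1 mouse. The tested probe with the highest mean level stood for its gene. Full values are given for genes changed past the threshold by at least 1 on the log2 scale in a comparison, plus Adam10 and Adam17, and for the 4 largest changes of each partner list plus Timp3, Rhbdf2 and Vcan. One gene that this rule names is not reported here. Where a probe was not detected in a group, the fold is a lower bound, the brighter group's mean over the mean of each dim array's lowest well-above-background signal or the probe's own if higher. An adjusted p-value given with such a bound tests the fitted difference, not the bound. Members, lists and tests were chosen with earlier results of these data known. Replicate numbers do not pair the arrays, since same-numbered arrays deviated from their group means with correlations of -0.14 to 0.22. The script was tested on simulated data. Alternatives covered filters, scaling, normalization, background correction, the slide, the replicate number and each array left out.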

Additional observations from a re-analysis of the deposited data

Results flagged for a closer look

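In 5 of 66 groups of arrays, 1 array of a named gene stood far from the rest by Dixon's criterion, where chance gives about 1 in 20 groups. Adam8 read 5.46 on MI 3 days replicate 3, with the others from 4.53 to 4.77. Adam12 read -0.24 on MI 3 days replicate 1, with the others from -0.58 to -0.51. Adam22 read -1.80 on MI 14 days replicate 3, with the others from -1.20 to -0.97. Adamts16 read -4.64 on MI 14 days replicate 5, with the others from -3.45 to -3.21. Adam17 read -1.80 on sham replicate 3, with the others from -1.74 to -1.72.

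For 18 named genes the effect against sham differed between the times, by the limma test of MI 14 days against MI 3 days, in which the shared sham arrays cancel. The effect at 14 days minus that at 3 days was negative for Adam19 (-0.43) and for 7 more genes, with values of -4.49 for Adam8, -3.73 for Adamts4, -1.49 for Adamts8, -1.18 for Adamts14, -1.12 for Adam12, -0.85 for Adam9 and -0.61 for Adam10. It was positive for Adamts17 (2.14), Adamtsl2 (2.13), Adamts15 (1.15), Adamtsl1 (1.13), Adamts10 (1.0), Adamtsl4 (0.73), Adam22 (0.71), Adam39 (0.66), Adamts2 (0.49) and Adam17 (0.29). The step of Adam22 missed the threshold on the scanner arrays alone (0.63, adjusted p = 0.0674), with normexp (0.33, adjusted p = 0.116) and in a fit blocked on slide (0.61, adjusted p = 0.116). The step of Adam17 missed it in the same 3 settings (0.20, 0.08 and 0.13), with quantile normalization (0.17) and without MI 14 days replicate 2 or 4 (0.24 and 0.25). The step of Adamts17 was lost with the slide as a block. The steps of Adam19, Adamts2 and Adam39 were lost with the slide block, with normexp and on the scanner arrays without a block. Adam39 also lost it with no filter on dim probes, with quantile normalization, and without MI 3 days replicate 2 or 4 or MI 14 days replicate 2, 4 or 5.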

How the results depend on the processing

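Of 51 calls on 22 named genes, 37 stayed on their side of the threshold in all alternatives run, among them those of Adam8 and Adamts4 at both times, of Adamts2 and Adamts7 against sham and of Adamtsl2 at 14 days. With the slide as a block, which leaves 10 arrays, 11 named calls were lost, with normexp 9, and on the scanner arrays without the block also 8. The count of genes lower at 3 days was 6 with normexp, against 13. Over all tested probes that count was 8081 with normexp, against 12819. The count higher at 14 days was 8 of 27 genes when probes had to be detected on all 10 scanner arrays, against 13 of 36. Over all probes it was 3747 of 27150, against 4115 of 32249. The count lower at 14 days was 2 with normexp and 1 with the slide block, against 4. Over all tested probes it was 4036 and 2938, against 6370. Genes higher at MI 14 days than at MI 3 days numbered 8 with normexp and 7 with the slide block, against 17. All tested probes so called numbered 5053 and 4765, against 10547, so calls were lost over the whole array too. Adam39 between the times was -0.03 with normexp, against 0.66, and the cause was not tested. With 1 array left out at a time, the counts were 15 to 16 higher and 13 to 15 lower at 3 days, 11 to 14 higher and 2 to 6 lower at 14 days (2 without sham replicate 2), and 14 to 19 higher and 11 to 12 lower between the times.

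Over all probes, calls at 14 days numbered 10485, of which 4115 were higher, and 5067 with the slide block. Scaling to the 75th percentile of the tested probes gave 9710, of which 5149 were higher. Between the times there were 17939 calls, 10550 with normexp and 9124 with the slide block. With the replicate block the number of member genes called was 15 higher and 13 lower at 3 days and 13 higher and 4 lower at 14 days. All 18 named calls at 3 days and all 15 at 14 days had the same direction within each slide that held both groups. These differences came from arrays already used for the calls. They set 1 MI array against 1 sham array at 3 days, and 1 against 2 or 3 against 1 at 14 days.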

Other observations

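Several members are next to each other among the protein-coding genes of the mouse reference, and some of these neighbours differed in direction at 3 days. Adamts15 and Adamts8 are adjacent on chromosome 9, and at 3 days Adamts15 was lower (-1.36 ± 0.20) while the brighter Adamts8 probe was higher (1.95 ± 0.22). Adam32 and Adam9 are adjacent on chromosome 8, and at 3 days Adam32 was lower (-0.73 ± 0.16) while Adam9 was higher (1.24 ± 0.13). On chromosome 16, Adamts1 was higher (0.91 ± 0.16) and its neighbour Adamts5 read 0.21 ± 0.16 on 1 probe and -0.94 ± 0.20 on the other.

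Of 9 member genes with 2 or more tested probes, the probes differed in their call for 5 genes at 3 days and 4 at 14 days, and for 0 genes in opposite directions. A dim probe of Adam5, a sperm protein gene, was higher at 14 days (2.33 ± 0.56, adjusted p = 0.0063), with levels of -3.56, -2.93, -1.02, -2.81 and -3.66 at MI 14 days and -3.80, -4.68, -6.36 and -5.66 in sham. The probe that stands for the gene did not pass the threshold (0.42 ± 0.20, adjusted p = 0.135).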
